A study of Mus musculus with 20 samples.

Results

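The genes described here are 8 mouse major histocompatibility complex (MHC) class I heavy chain genes, H2-K1, H2-D1, H2-T23, H2-T22, H2-Q4, H2-Q6, H2-Q7 and H2-M3, together with B2m, the gene of the light chain beta-2 microglobulin. They were chosen by gene name. All 9 were found in every deposited table, among the 28076 genes listed in any of them, and all 9 passed the filter on low counts in every comparison. A class I molecule is a heavy chain bound to beta-2 microglobulin and a short peptide cut from the cell's own proteins, and CD8 T cells read that peptide at the cell surface. H2-K1 and H2-D1 are the classical heavy chains that present most peptides, and the other heavy chains are non-classical ones with narrower peptides or receptors. Interferon gamma raises transcription of the heavy chains, of B2m and of the genes that cut and load peptides, and loss of class I is a known route by which tumor cells escape T cells, while natural killer (NK) cells respond to its absence.

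The study measured RNA by sequencing in 20 libraries of MB49, a mouse bladder cancer cell line that came from a male C57BL/6 mouse, and compared cells labelled Y-negative or Y-positive, that is without or with the Y chromosome. The 4 groups held 5 libraries each: Y-negative cultures (BN2, BN3, BN6, BN9 and BN10), Y-positive cultures (MB8, MB11, MB17, MB19 and MB34), tumors of Y-negative cells (MN11, MN12, MN13, MN14 and MN15) and of Y-positive cells (MP6, MP7, MP8, MP9 and MP10). Cultures were kept in DMEM with 10% fetal bovine serum, and tumors were grown under the skin of wild-type male C57BL/6 mice, so every tumor library also holds RNA of host cells, which carry a Y chromosome in both genotypes and carry their own class I genes. Whether libraries of a group stem from separate dishes, clones or mice is not in the labels, and p-values then measure only the spread between these libraries, which may be technical. Library totals ran from 14557118 to 21180885 reads. Levels are given as reads scaled to the library's total (CPM), and a gene is said to have changed where the adjusted p of edgeR's quasi-likelihood test, fitted over all genes, was under 0.05.

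Reads of 4 Y-linked genes (Ddx3y, Eif2s3y, Kdm5d and Uty) came to 0 to 1 in the Y-negative cultures and 215 to 1691 in the Y-positive cultures, and to 307 to 601 in the Y-negative and 2276 to 4839 in the Y-positive tumors. Of 9 urothelial marker genes 3 were listed in the cultures, where they summed to 26.1 to 47.1 CPM, against 13.9 to 28.7 CPM for the 8 listed in the tumors. Most of the sum in cultures came from the transcription factor genes Gata3 (14.04 to 36.1 CPM) and Foxa1 (9.21 to 13.1 CPM), while the uroplakin gene Upk1a stood at 0.06 to 1.27 CPM and, in the tumors, Upk2 had 0 reads in all 5 Y-negative libraries. The keratins Krt8 and Krt18 were abundant in every group, at 344 CPM or more, while the epithelial adhesion gene Epcam stayed at 1.2 CPM or below. In the Y-negative tumors, MN12 and MN15 stood apart from MN11, MN13 and MN14. The slope of log2 CPM on log2 gene length was 0.382 and 0.392 in MN12 and MN15 and 0.652 to 0.695 in the other three, against 0.255 to 0.556 in the Y-positive tumors. Some markers of other cells divided the same libraries, while leukocyte and macrophage markers did not. Leukocyte markers summed to 332 and 356 CPM in MN12 and MN15 against 241 to 342 in the other three, and macrophage markers to 917 and 962 against 789 to 1006. T cell markers summed to 46.6 and 43.5 CPM in MN12 and MN15 against 16.9 to 29.5 in the other three, neutrophil markers to 224 and 194 against 47.2 to 124, and fibroblast markers to 634 and 777 against 951 to 1431. The genotype differences of the 9 genes in tumors are given also without either set, and those of other lists with all libraries.

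In the reference (GENCODE release M21, build GRCm38) the 8 heavy chain genes lie on chromosome 17, in the H2 region between H2-K1 (chr17:33996017-34000333, minus strand) and H2-M3 (chr17:37270220-37274484, plus strand), and B2m lies on chromosome 2 (chr2:122147686-122153083, plus strand). Close relatives in this region can share reads. Of the distinct 50-base stretches in the annotated transcripts, none of B2m, 0.576% of H2-M3, 6.87% of H2-K1 and 13.9% of H2-D1 also occurred in a transcript of another gene. The share was 24.3% for H2-Q4, 28.8% for H2-T23, 32.0% for H2-Q6, 34.9% for H2-Q7 and 43.9% for H2-T22, of which H2-T10 alone held 37.5%. Of 100-base stretches the shares were lower, at 2.66%, 7.28%, 10.8%, 17.2% and 12.4% in the same order, with H2-T10 at 8.57%. How reads that match several genes were divided is not stated in the labels, and values of H2-T22, H2-Q6 and H2-Q7 are uncertain in that respect.

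The stretches just before the start sites are shown for 6 genes that represent the arrangements found. They are the 200 bases upstream of the RefSeq start on build GRCm38.p6, read 5′ to 3′ on the gene's strand. Capitals mark a match, on either strand, to the interferon-stimulated response element core GAAANNGAAA, its shorter form GAANNGAAA, the kappa B site GGGATTCCC or the CCAAT box.
H2-K1, chr17:34000348-34000547, - strand: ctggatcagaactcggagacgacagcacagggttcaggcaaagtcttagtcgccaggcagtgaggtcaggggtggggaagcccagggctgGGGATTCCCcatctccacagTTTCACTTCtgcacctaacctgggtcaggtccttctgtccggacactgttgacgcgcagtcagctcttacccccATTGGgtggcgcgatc
H2-Q4, chr17:35379417-35379616, + strand: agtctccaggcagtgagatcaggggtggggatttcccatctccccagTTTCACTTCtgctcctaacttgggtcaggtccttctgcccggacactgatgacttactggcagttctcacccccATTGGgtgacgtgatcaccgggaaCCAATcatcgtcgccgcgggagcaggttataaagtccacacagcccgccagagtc
H2-Q6, chr17:35424650-35424849, + strand: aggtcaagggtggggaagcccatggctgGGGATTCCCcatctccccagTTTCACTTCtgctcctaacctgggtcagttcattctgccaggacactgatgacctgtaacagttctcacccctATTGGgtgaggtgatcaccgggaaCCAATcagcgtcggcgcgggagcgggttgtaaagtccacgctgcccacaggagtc
H2-Q7, chr17:35438955-35439154, + strand: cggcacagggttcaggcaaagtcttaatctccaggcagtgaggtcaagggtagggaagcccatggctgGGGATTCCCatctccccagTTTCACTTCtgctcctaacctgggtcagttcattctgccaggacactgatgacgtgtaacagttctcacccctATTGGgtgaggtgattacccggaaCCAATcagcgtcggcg
H2-T22, chr17:36042743-36042942, - strand: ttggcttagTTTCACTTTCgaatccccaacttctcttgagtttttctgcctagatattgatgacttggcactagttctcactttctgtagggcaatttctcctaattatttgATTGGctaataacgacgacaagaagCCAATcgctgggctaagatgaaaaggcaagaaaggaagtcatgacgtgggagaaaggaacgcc
B2m, chr2:122147487-122147686, + strand: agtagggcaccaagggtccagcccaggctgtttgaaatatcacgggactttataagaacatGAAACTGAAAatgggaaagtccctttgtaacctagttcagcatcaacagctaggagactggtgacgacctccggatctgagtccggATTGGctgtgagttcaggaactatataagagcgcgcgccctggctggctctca

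The windows searched were the 250 bases before the start, and RefSeq gave one for all 9 genes and for 27025 genes in all. A CCAAT box stood in the windows of all 9 genes and in 34.5% of all windows. The kappa B letters stood in those of H2-K1, H2-D1, H2-Q6 and H2-Q7, which is 4 of 9, against 0.311% of all windows. Other forms of the kappa B site were not searched, so a window without these letters, such as that of H2-Q4, may hold another form. The longer interferon core stood in those of B2m, H2-T23 and H2-T22, which is 3 of 9, against 3.04% of all. Its shorter form, searched after the sequences had been seen, stood in those of H2-K1, H2-D1, H2-Q4, H2-Q6, H2-Q7 and H2-M3, which is 6 of 9, against 6.34% of all. Relatives share sequence, so these genes are not independent of each other, and a match is a description of letters and not a site shown to be bound. H2-D1 and H2-M3 did not pass the test between cultures and tumors. Both carry the shorter interferon form and the CCAAT box, and H2-D1 also the kappa B letters. Any part of these letters in the changes was not tested.

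Levels can be compared between genes only per length, for which the authors' FPKM, reads scaled to gene length and library total, were used. H2-D1 had the highest FPKM in every group, followed by B2m and then H2-K1, and this order held in each of the 20 libraries. The lengths behind these FPKM were 903 bases for H2-D1, 1122 for H2-K1 and 860 for B2m, against listed gene lengths of 2579, 2608 and 860. The order therefore depends on the lengths chosen. Mean FPKM of H2-D1 was 1755 ± 412 (SD, n = 5) in Y-negative and 2076 ± 249 in Y-positive cultures, and 2090.3 ± 149 and 2425 ± 310.3 in the tumors. B2m stood at 843 ± 341 and 901 ± 61.8 in cultures and at 1771 ± 197 and 2041 ± 319 in tumors. The ranges of H2-D1 and B2m did not overlap in the cultures of either genotype and overlapped in the tumors of both.

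The 6 non-classical genes lay well below, and H2-K1 exceeded the next of them 10.4-fold to 15.2-fold in mean FPKM. In the Y-positive tumors H2-T23 stood at 152 ± 26.4 FPKM, H2-T22 at 127 ± 29.0, H2-Q4 at 91.8 ± 13.4, H2-M3 at 37.9 ± 9.75, H2-Q7 at 36.5 ± 14.1 and H2-Q6 at 32.2 ± 8.66 (SD, n = 5). H2-Q4 exceeded H2-M3 there with no overlap, while ranges overlapped for each other pair of neighbours in this order. In the cultures all 6 stood at 80.5 FPKM or below in every library. H2-Q6 and H2-Q7 were the lowest in both culture groups and their ranges overlapped.

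**Figure D1:**
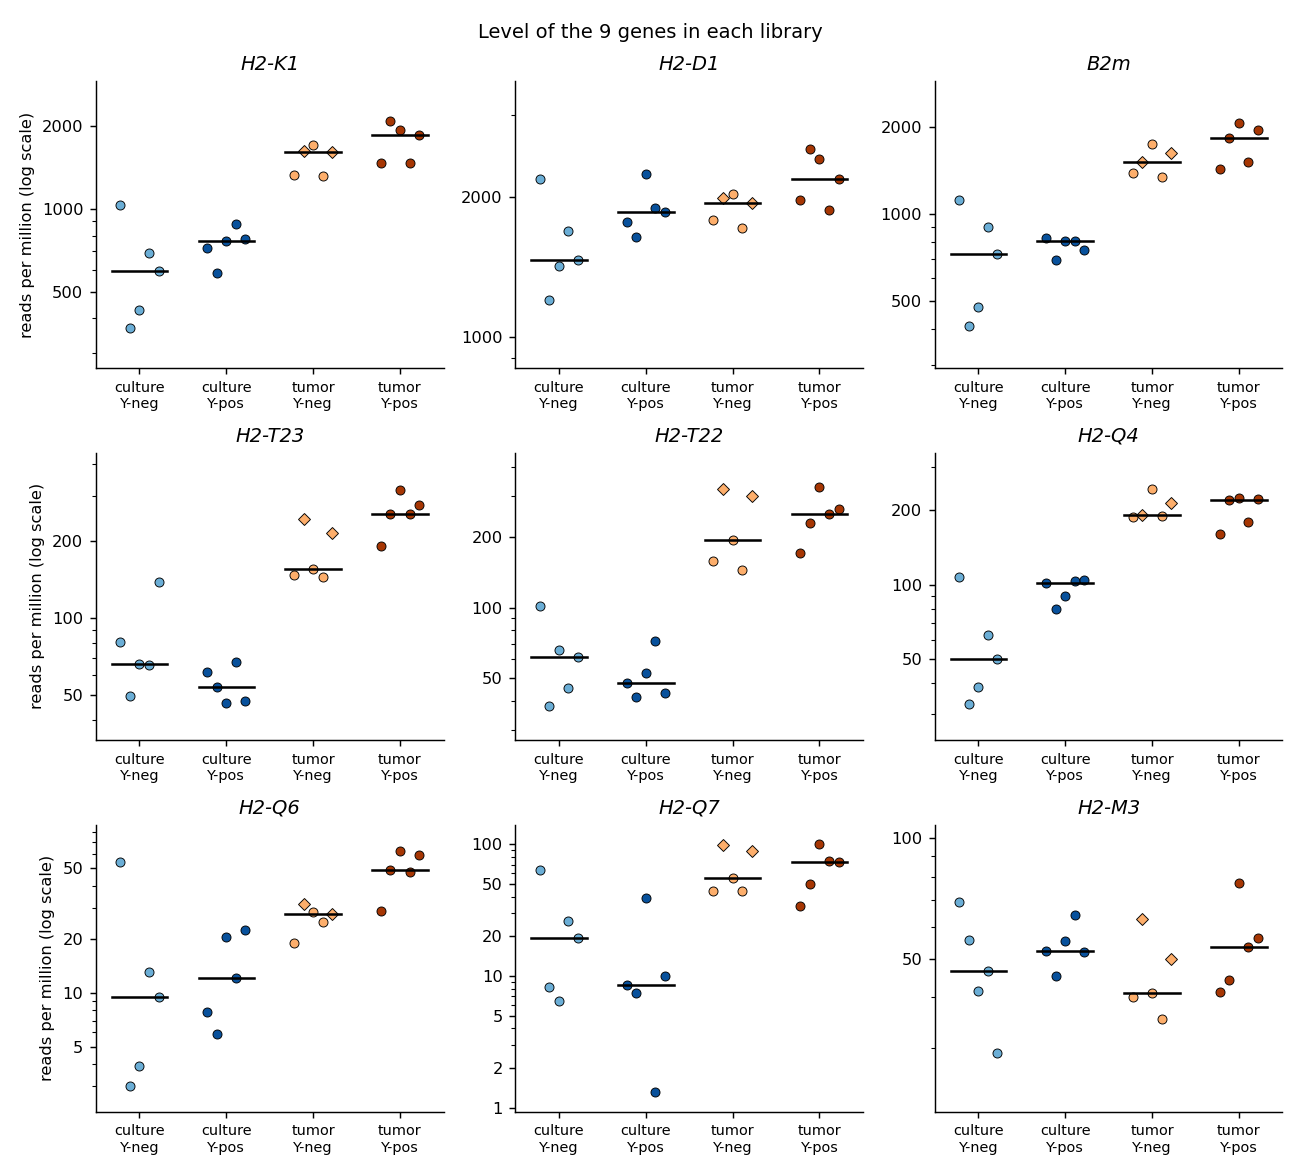
Level of each of the 9 genes in CPM (vertical axis, log scale) in the 4 groups of 5 libraries. Each point is 1 library, the diamonds are MN12 and MN15, and the bar is the group's median. H2-K1, B2m, H2-T23, H2-T22 and H2-Q4 are higher in all 10 tumor libraries than in all 10 culture libraries, while H2-D1 and H2-M3 overlap.

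The comparison of tumors with cultures of the same genotype asks how class I expression differs between cells in a dish and the tumor they form in a mouse. The classical gene H2-K1 and the light chain gene B2m rose in both genotypes, and the classical gene H2-D1 did not pass the test in either. H2-T23, H2-T22 and H2-Q4 rose in both genotypes, H2-Q6 and H2-Q7 passed in the Y-positive comparison, and H2-M3 passed in neither. In the Y-negative libraries 5 of 9 genes rose and 0 fell, where 56% of all 13740 genes tested changed and 28.1% rose. In the Y-positive libraries 7 of 9 rose and 0 fell, where 61.8% of all genes changed and 31.7% rose. The median change of the 9 was 1.04 and 1.08 on the log2 scale, against 0.02 over all genes tested in both comparisons. With library totals as the sole scaling, the median over all genes moved to 0.20 and 0.21, and the Y-negative calls to 4696 higher and 2911 lower from 3861 and 3827 (Y-positive to 5070 and 3199 from 4361 and 4129). All genes in these comparisons are those listed in both cultures and tumors, 14650 before the filter, and the totals in this fit were summed over them. Genes listed in the tumors alone are left out.

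H2-K1 encodes the K heavy chain. It stood at 1032 CPM in BN2, 369 in BN3, 427 in BN6, 688 in BN9 and 593 in BN10, and at 1328 in MN11, 1625 in MN12, 1707 in MN13, 1322 in MN14 and 1610.0 in MN15. In the Y-positive libraries it was 721 in MB8, 583 in MB11, 766 in MB17, 880.4 in MB19 and 776 in MB34, and 1475 in MP6, 2086 in MP7, 1935 in MP8, 1465 in MP9 and 1853 in MP10. All 10 tumor libraries were thus above all 10 culture libraries, and BN2 was the highest culture. The log2 change was 1.13 ± 0.23 (SE) in the Y-negative libraries (edgeR adjusted p = 0.000245) and 1.08 ± 0.23 in the Y-positive ones (edgeR adjusted p = 0.000306).

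H2-D1 encodes the D heavy chain. Its levels were 2177 CPM in BN2, 1198 in BN3, 1421 in BN6, 1684 in BN9 and 1459 in BN10, against 1780.3 in MN11, 1983 in MN12, 2027 in MN13, 1715 in MN14 and 1932 in MN15. The Y-positive cultures held 1767 in MB8, 1637 in MB11, 2241 in MB17, 1891 in MB19 and 1849 in MB34, and the tumors 1969 in MP6, 2529 in MP7, 2405 in MP8, 1868 in MP9 and 2177 in MP10. Cultures and tumors overlapped in both genotypes. The log2 change was 0.09 ± 0.17 (edgeR adjusted p = 0.674) and 0.05 ± 0.17 (edgeR adjusted p = 0.794). With library totals as the sole scaling it was 0.27 and 0.24, close to the shift of all genes under that scaling.

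The 2 classical genes took different shares in cultures and tumors, a comparison chosen after their values had been seen and given with no test. There were 2.11 to 3.32 reads of H2-D1 for each read of H2-K1 in the 10 cultures, and 1.17 to 1.34 in the 10 tumors, with no overlap. The ranges of the genotypes overlapped, and the mean was 2.72 ± 0.54 in Y-negative and 2.54 ± 0.32 in Y-positive cultures (SD, n = 5), and 1.25 ± 0.0665 and 1.25 ± 0.0611 in the tumors. H2-K1 and H2-D1 together made 87.0% to 90.8% of the summed CPM of the 8 heavy chains in cultures and 79.2% to 84.6% in tumors. That sum itself was 1754 to 3685 CPM in cultures and 3619 to 5464 in tumors, so the lowest tumor, MN14, lay below the highest culture, BN2.

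B2m, whose product every heavy chain needs to reach the surface, stood at 1117 CPM in BN2, 411 in BN3, 478 in BN6, 902 in BN9 and 725 in BN10, and at 1388 in MN11, 1516 in MN12, 1749 in MN13, 1337 in MN14 and 1624 in MN15. The Y-positive cultures were close together, at 823 in MB8, 694 in MB11, 805 in MB17, 806 in MB19 and 752 in MB34, and the tumors stood at 1426 in MP6, 1824 in MP7, 2055 in MP8, 1515 in MP9 and 1956 in MP10. No tumor overlapped a culture. The log2 change was 0.91 ± 0.22 (edgeR adjusted p = 0.00124) in Y-negative and 1.02 ± 0.22 (edgeR adjusted p = 0.000353) in Y-positive libraries. Summed FPKM of the heavy chains for each unit of B2m was 2.50 to 3.74 in cultures and 2.01 to 2.41 in tumors, again with no overlap and with no test. This ratio also depends on the lengths behind the FPKM.

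**Figure D2:**
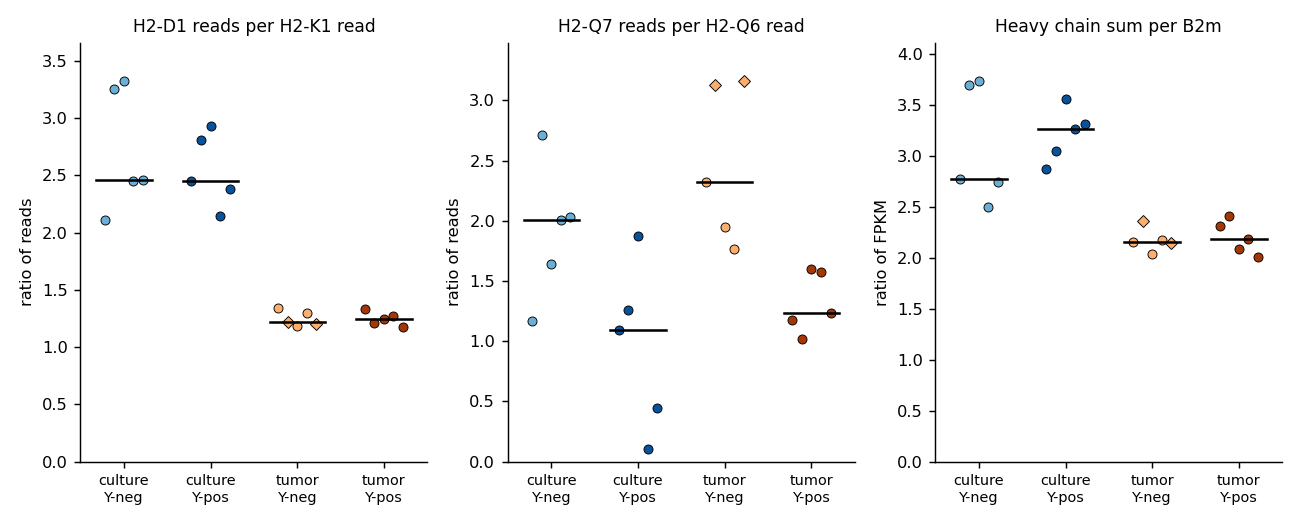
Ratio of H2-D1 to H2-K1 reads, of H2-Q7 to H2-Q6 reads, and of the summed FPKM of the 8 heavy chains to that of B2m (vertical axes, from 0) in the 4 groups; each point is 1 library, diamonds are MN12 and MN15 and bars are medians. The 10 tumors lie between 1.17 and 1.34 for H2-D1 to H2-K1, below all 10 cultures, and for H2-Q7 to H2-Q6 the 5 Y-negative tumors lie above the 5 Y-positive tumors.

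H2-T23 encodes Qa-1, which presents a signal peptide of other class I heavy chains to the CD94/NKG2 receptors of NK cells. In cultures it stood at 80.6 CPM in BN2, 49.6 in BN3, 66.1 in BN6, 65.3 in BN9 and 138 in BN10, and at 61.7 in MB8, 53.6 in MB11, 46.7 in MB17, 67.3 in MB19 and 47.4 in MB34. In tumors it was 147 in MN11, 243 in MN12, 156 in MN13, 144 in MN14 and 215 in MN15, and 191 in MP6, 256 in MP7, 316 in MP8, 256 in MP9 and 276 in MP10. Every tumor lay above every culture, and BN10 was the highest culture by a wide margin. The log2 change was 1.04 ± 0.23 (edgeR adjusted p = 0.000604) in Y-negative and 2.08 ± 0.24 (edgeR adjusted p = 1.45e-07) in Y-positive libraries.

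H2-T22, a heavy chain that carries no peptide and is known as a ligand of some gamma delta T cells, had 38.0 to 102 CPM in the Y-negative and 41.3 to 72.1 in the Y-positive cultures. The Y-negative tumors split into 321 in MN12 and 300.2 in MN15, against 158 in MN11, 195 in MN13 and 144 in MN14, while the Y-positive tumors ran from 171 in MP6 to 328 in MP8. Its log2 change was 1.70 ± 0.28 (edgeR adjusted p = 2.86e-05) and 2.12 ± 0.29 (edgeR adjusted p = 1.45e-06). H2-T10, the relative with which H2-T22 shares the most sequence, rose by 1.8 ± 0.51 and 2.45 ± 0.52 as well.

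H2-Q4, a non-classical gene of the Q region, was the most abundant of the 3 Q genes in every group. It stood at 107 CPM in BN2, 33.0 in BN3, 38.4 in BN6, 62.6 in BN9 and 50.2 in BN10, and at 188 in MN11, 191 in MN12, 244 in MN13, 190.2 in MN14 and 213 in MN15. The Y-positive cultures held 102 in MB8, 80.0 in MB11, 90.02 in MB17, 104 in MB19 and 105 in MB34, and the Y-positive tumors 161 in MP6, 219.9 in MP7, 225 in MP8, 179 in MP9 and 222 in MP10. No tumor overlapped a culture, and 4 of the 5 Y-negative cultures lay below all 5 Y-positive ones. The log2 change was 1.65 ± 0.23 in Y-negative libraries (edgeR adjusted p = 4.09e-06) and 0.91 ± 0.23 in Y-positive ones (edgeR adjusted p = 0.00165).

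H2-Q6 and H2-Q7 encode Qa-2 molecules, which can be held in the membrane by a lipid anchor, and both varied widely among cultures. H2-Q6 stood at 54.5 CPM in BN2, 3.02 in BN3, 3.91 in BN6, 13.1 in BN9 and 9.52 in BN10, and at 7.81 in MB8, 5.87 in MB11, 20.7 in MB17, 12.2 in MB19 and 22.6 in MB34. H2-Q7 stood at 63.7 in BN2, 8.20 in BN3, 6.41 in BN6, 26.3 in BN9 and 19.3 in BN10, and at 8.53 in MB8, 7.38 in MB11, 38.8 in MB17, 1.31 in MB19 (19 reads) and 10.0 in MB34. BN2 was thus the highest Y-negative culture for both, as it was for H2-K1, H2-D1, B2m, H2-T22, H2-Q4 and H2-M3.

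In the Y-positive comparison the log2 change was 1.65 ± 0.56 for H2-Q6 (edgeR adjusted p = 0.0134) and 2.13 ± 0.64 for H2-Q7 (edgeR adjusted p = 0.00598). H2-Q6 no longer passed with the length slope as a covariate (1.28, edgeR adjusted p = 0.0572), and the H2-Q7 groups overlapped, since MP6 at 33.8 CPM lay below MB17. In the Y-negative comparison the change was 0.48 ± 0.54 for H2-Q6 (edgeR adjusted p = 0.467) and 1.27 ± 0.61 for H2-Q7 (edgeR adjusted p = 0.0831). Without BN2 both passed, at 1.69 (edgeR adjusted p = 0.00218) and 2.01 (edgeR adjusted p = 0.00977), so 7 of 9 genes were then called. With all libraries limma-voom called 7 as well, adding H2-Q6 (1.30) and H2-Q7 (1.67), and library totals and the length slope each called 6, adding H2-Q7 (1.43 and 1.36). Over all genes, 3583 of 13872 tested were called higher without BN2. Of 13740 tested with all libraries, limma-voom called 4012 higher, library totals 4696 and the length slope 4074.

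H2-M3 presents peptides that begin with formyl-methionine, as bacteria and mitochondria make them. The ranges of all 4 groups overlapped, with 29.1 to 69.3 CPM in Y-negative and 45.1 to 64.2 in Y-positive cultures and with 35.3 to 62.6 and 41.3 to 77.0 in the tumors. The log2 change was -0.23 ± 0.23 (edgeR adjusted p = 0.399) and -0.14 ± 0.23 (edgeR adjusted p = 0.604). The sign of the latter turned with library totals as the sole scaling (0.04), and the change passed as lower with the length slope as a covariate (-0.50, edgeR adjusted p = 0.0255).

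Tumor and culture ranges did not overlap for 5 of 9 genes in the Y-negative libraries (H2-K1, B2m, H2-T23, H2-T22 and H2-Q4) and for 6 of 9 in the Y-positive ones (the same 5 and H2-Q6), each with the tumors higher. Over all genes tested this held for 21.4% and 28.6%. Without MN12 and MN15 or without MN11, MN13 and MN14, 5 genes were called higher in the Y-negative comparison in either case. Over all genes tested, 3674 of 14054 and 2766 of 14281 were called higher in these 2 fits.

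**Figure D3:**
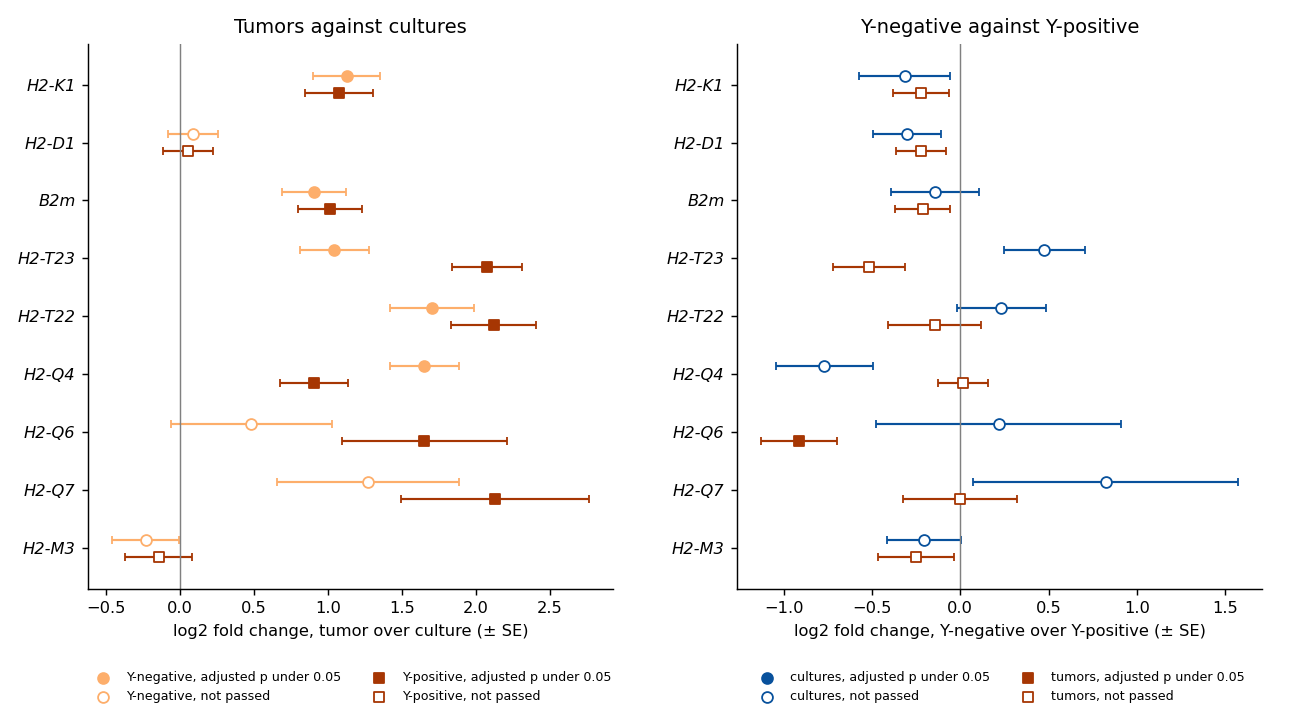
Log2 fold change with its standard error (horizontal axis) of the 9 genes, on the left for tumors over cultures in each genotype and on the right for Y-negative over Y-positive libraries in cultures and in tumors. Filled symbols passed edgeR's adjusted p of 0.05: 5 genes in the Y-negative and 7 in the Y-positive tumor comparison, 0 between the cultures and H2-Q6 alone between the tumors.

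Tumor libraries hold other cells than cultures do, and in bulk RNA fewer cells of a type and less RNA per cell cannot be told apart. The 4 leukocyte markers (3 listed in cultures) summed to 0.961 to 4.74 CPM in the cultures, to 241 to 356 in the Y-negative tumors and to 365 to 521 in the Y-positive tumors. Macrophage markers (7 genes, 3 listed in cultures) summed to 45.6 to 304 CPM in cultures, 789 to 1006 in Y-negative and 964 to 1350 in Y-positive tumors, and the complement gene C1qa of that list ran from 146 to 263 and from 273 to 400.0 CPM in the tumors. T cell markers (5 genes) summed to 16.9 to 46.6 and 21.6 to 55.0 CPM in the tumors, NK markers (4 genes) to 6.81 to 12.6 and 14.8 to 20.5, and fibroblast markers (6 genes) to 634 to 1431 and 898 to 1629.7. Of the defining leukocyte markers, Ptprc (CD45) had 0 reads in some culture libraries and at most 1.2 CPM in any. These cells carry class I genes of their own, and their part in the changes was not tested.

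The comparison of genotypes asks whether cells without a Y chromosome express class I differently. In culture 0 of 9 genes passed edgeR's test, where 0.0321% of 12446 genes did (4 genes). An unadjusted p under 0.05 was reached by 1 of the 9, H2-Q4, and by 2100 of the 12446. DESeq2 also called 0 of 9, where it called 3.79% of all genes, and limma-voom called 0. The groups overlapped for all 9 genes, and 3.82% of all genes tested showed no overlap. The median of the 9 was -0.14, with 4 above and 5 below 0, against 0.02 over all genes.

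Between the cultures the log2 difference, Y-negative minus Y-positive, was -0.32 ± 0.26 for H2-K1 (edgeR adjusted p = 0.546), -0.30 ± 0.19 for H2-D1 (edgeR adjusted p = 0.433) and -0.14 ± 0.25 for B2m (edgeR adjusted p = 0.793). H2-Q4 had -0.77 ± 0.28 (edgeR adjusted p = 0.199), and without BN2, the highest Y-negative culture, -1.12 (edgeR adjusted p = 0.0812). H2-T23 had the opposite sign at 0.47 ± 0.23 (edgeR adjusted p = 0.312), and 0.20 without BN10. For H2-Q6 and H2-Q7 the differences were 0.22 ± 0.69 and 0.82 ± 0.75, with large errors. The Y-negative cultures were also the more spread out: B2m ran from 411 to 1117 CPM there and from 694 to 823 CPM in the Y-positive cultures.

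Between the tumors 1 of 9 genes passed, H2-Q6, which was lower in Y-negative tumors, where 2.45% of 14783 genes tested changed. Of the 9 differences 8 were negative, H2-Q7 by only -0.00035, with a median of -0.22 against -0.01 over all genes. All 9 genes overlapped between the groups, and 5.45% of all genes did not. Sums of cell type markers also differed in range between the tumors. Skin keratinocyte markers, of which Krt14 made nearly all, summed to 19.3 to 28.0 CPM in the Y-negative and 75.6 to 144 CPM in the Y-positive tumors, and epithelial markers to 3519.5 to 4111 and 4323 to 5435 CPM, both with no overlap. The epithelial genes Krt8 and Krt18 were abundant in the cultures as well, so that list does not mark other cells alone. The leukocyte and NK marker sums did not overlap either and were lower in the Y-negative tumors, with 4 of 4 and 3 of 4 differences negative. Neutrophil markers ran from 47.2 to 224 and from 36.5 to 84.0 CPM, with 4 of 4 differences positive. By edgeR 0 of 4 leukocyte, 0 of 4 NK, 0 of 4 neutrophil and 0 of 5 tested epithelial genes passed, where 2.45% of all genes did. Of 4 keratinocyte genes 1 was tested, and it passed as lower. That list thus rests on 1 gene in the tumors, and which cells express it was not tested. Of 6 fibroblast genes 1 passed as higher and 2 as lower. The part of these cell types in the differences of the class I genes was not tested. H2-K1, H2-D1 and B2m did not pass, at -0.22 ± 0.16 (edgeR adjusted p = 0.419), -0.22 ± 0.14 (edgeR adjusted p = 0.366) and -0.21 ± 0.15 (edgeR adjusted p = 0.421).

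H2-Q6 stood at 19.05 CPM in MN11, 31.6 in MN12, 28.5 in MN13, 24.9 in MN14 and 27.9 in MN15, and at 28.8 in MP6, 48.7 in MP7, 62.7 in MP8, 47.5 in MP9 and 59.4 in MP10. MP6 alone among the Y-positive tumors reached into the Y-negative range. The log2 difference was -0.91 ± 0.22 (edgeR adjusted p = 0.0467), close to the threshold, and the call was lost in 12 of 19 alternatives, over which the adjusted p ran from 0.00337 to 0.520. Leaving out MN11, MN13, MN14, MN15, MP7, MP8, MP9 or MP10 ended it, as did limma-voom (-0.88, adjusted p = 0.0597) and the length slope as a covariate (-0.65, edgeR adjusted p = 0.0816).

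H2-Q7, its close relative, had a difference of -0.00035 ± 0.32 (edgeR adjusted p = 0.999), with 44.2 CPM in MN11, 98.8 in MN12, 55.4 in MN13, 44.0 in MN14 and 88.1 in MN15, and 33.8 in MP6, 49.7 in MP7, 101 in MP8, 74.7 in MP9 and 73.2 in MP10. Reads of H2-Q7 for each read of H2-Q6 ran from 1.77 to 3.16 in the Y-negative and from 1.02 to 1.60 in the Y-positive tumors, with no overlap, a ratio chosen after its values had been seen and given with no test. In cultures the same ratio overlapped, at 1.17 to 2.71 and 0.107 to 1.88. Of the 50-base stretches of H2-Q6 13.9% also occur in H2-Q7, and the sum of both genes was 63.3 to 130.3 CPM in the Y-negative and 62.6 to 163 CPM in the Y-positive tumors.

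The differences of the T region genes depended on which Y-negative tumors were kept. H2-T23 had -0.52 ± 0.21 with all libraries (edgeR adjusted p = 0.167), -0.89 ± 0.17 without MN12 and MN15 (edgeR adjusted p = 0.00872) and -0.12 ± 0.21 without MN11, MN13 and MN14 (edgeR adjusted p = 0.895). H2-T22 had -0.14 ± 0.26, -0.67 ± 0.21 (edgeR adjusted p = 0.0361) and 0.38 ± 0.23, so its sign turned. The T cell and neutrophil markers given above are high in MN12 and MN15. These markers, the fibroblast markers and the length slope divide these libraries in the same way, and their part in the differences was not tested. With the length slope as a covariate the sign of H2-T22 turned as well. Without MN12 and MN15 3 of 9 genes passed, H2-Q6, H2-T23 and H2-T22, all lower, where 23.6% of all genes changed. Without MN11, MN13 and MN14 0 of 9 passed, where 0.132% did. An unadjusted p under 0.05 was reached there by 1 of the 9 and by 1407 of all 15968 genes tested. Without MN12 and MN15 it was reached by 5 of the 9 and by 5957 of all 15396 genes tested.

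The classical genes and B2m kept their sign in both subsets and did not pass in either. H2-K1 had -0.36 ± 0.17 without MN12 and MN15 and -0.07 ± 0.20 without MN11, MN13 and MN14, H2-D1 -0.33 ± 0.15 and -0.10 ± 0.18, and B2m -0.32 ± 0.17 and -0.10 ± 0.20. H2-Q6 had -1.12 ± 0.25 and -0.68 ± 0.28, and H2-Q7 -0.56 ± 0.29 and 0.54 ± 0.33. H2-Q4 stood at 0.02 ± 0.14 with all libraries, -0.04 ± 0.16 and 0.06 ± 0.19 in the subsets, and H2-M3 at -0.25 ± 0.21, -0.57 ± 0.20 and 0.10 ± 0.25.

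Whether the genotype difference itself differed between tumors and cultures was tested as an interaction over all 20 libraries. By edgeR 0 of 9 genes passed, where 4.56% of all genes did. An unadjusted p under 0.05 was reached by 2 of the 9, and by 3122 of all 13740 genes tested. H2-T23 had the value farthest from 0 relative to its error, -1.03 ± 0.32 (edgeR adjusted p = 0.0653), where Y-negative cultures averaged 79.9 ± 34.3 CPM against 55.4 ± 9.01 in Y-positive ones, while tumors averaged 181 ± 45.3 against 259 ± 45.1 (SD, n = 5). DESeq2 called it (adjusted p = 0.0322), as 1 of 9 against 9.29% of all genes, limma-voom called 0, and edgeR called it without BN3, MN12, MN15 or MP6 and without MN12 and MN15 together (-1.40, adjusted p = 0.00999). Over its 28 alternatives the adjusted p ran from 0.00999 to 0.442. H2-Q4 had 0.74 ± 0.32 (edgeR adjusted p = 0.172) and passed without BN2 (1.09, edgeR adjusted p = 0.0205). For H2-K1, H2-D1 and B2m the value was 0.05 ± 0.32, 0.04 ± 0.24 and -0.11 ± 0.30.

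The genes whose level followed the class I genes most closely across libraries were looked for, as a description, by their correlation with the mean log2 CPM of H2-K1, H2-D1 and B2m. With the class I genes themselves and predicted genes left out, those closest across the 10 cultures, among 8516 genes, were the peptide transporter genes Tap1 (Pearson r = 0.939) and Tap2 (0.910), followed by Sema3f (0.908), the adhesion molecule gene Vcam1 (0.879) and the sterol enzyme gene Sc5d (0.875). Across the 10 tumors, among 9450 genes, they were Tap1 again (0.957), the transcription factor gene Irf1 (0.946), Apol10b (0.940), Supt3 (0.935) and Batf2 (0.933). The points of each correlation share their library and its depth, and the tumors share their cell makeup. Without the library farthest out, BN3 in cultures and MN14 in tumors, the r of Tap1 was 0.962 in both. Without BN3 that of Sema3f moved to 0.835 and that of Vcam1 to 0.854, and those of the other 2 culture genes were 0.954 (Tap2) and 0.890 (Sc5d).

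Among the other class I genes H2-Q6 and H2-Q4 followed the same mean in cultures (r = 0.923 and 0.914), H2-T22 (0.537), H2-M3 (0.532) and H2-Q7 (0.367) had lower values, and H2-T23 stood at 0.106. Without BN3 the value of H2-T23 turned to -0.152, H2-M3 moved to 0.796 and H2-T22 to 0.368. In tumors H2-Q6 (0.833), H2-T23 (0.829), H2-T22 (0.761), H2-Q4 (0.751), H2-M3 (0.698) and H2-Q7 (0.595) all had positive values.

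The machinery that supplies class I with peptides was taken as a list of 13 genes. Of the 12 tested between tumors and cultures, 7 rose and 2 fell in the Y-negative libraries and 8 rose and 2 fell in the Y-positive ones, with medians of 1.45 and 1.34 against 0.02 over all genes. Over all genes 28.1% rose in the first comparison and 31.7% in the second. The proteasome activator gene Psme1 rose by 2.71 ± 0.28 and 3.76 ± 0.30, tapasin (Tapbp), which bridges class I to the transporter, by 1.64 ± 0.17 and 1.92 ± 0.18, and the immunoproteasome subunit Psmb9 by 5.44 ± 0.61 and 7.02 ± 0.68 on the log2 scale. Tap1 rose by 1.31 ± 0.23 and 1.23 ± 0.23, beside 1.13 and 1.08 for H2-K1. The members that fell were the chaperone genes Canx (-0.73 ± 0.14 and -0.91 ± 0.14) and Calr (-0.64 ± 0.24 and -0.78 ± 0.24), which assist the folding of many glycoproteins. Between genotypes 0 of 12 passed in cultures and 0 of 13 in tumors by edgeR, where 0.0321% and 2.45% of all genes did. In the tumors 12 of 13 differences were negative with a median of -0.25.

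Of 11 transcription regulators of class I genes, 5 rose and 1 fell in Y-negative tumors against cultures, and 5 rose and 5 fell in Y-positive ones, with medians of 0.09 and -0.43. Of all genes 56% and 61.8% changed in these comparisons, and the 6 of 11 of the Y-negative one lie near that share. Irf8 rose by 4.73 ± 0.39 and 4.80 ± 0.39, and Stat2 by 3.04 ± 0.27 and 3.37 ± 0.27. Nlrc5, the class I transactivator, rose by 1.67 ± 0.22 and 1.2 ± 0.22, from 8.72 to 30.7 CPM in cultures to 46.1 to 80.3 CPM in tumors. Irf1, which followed the class I genes across tumors, had -0.36 ± 0.33 and -0.73 ± 0.33 and did not pass. Rela, a subunit of NF-kappa B, fell by 0.96 ± 0.26 and 1.08 ± 0.27. Between genotypes 0 of 11 passed in cultures, 0 of 11 in tumors and 0 of 11 in the interaction by edgeR, where 0.0321%, 2.45% and 4.56% of all genes did.

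**Figure D4:**
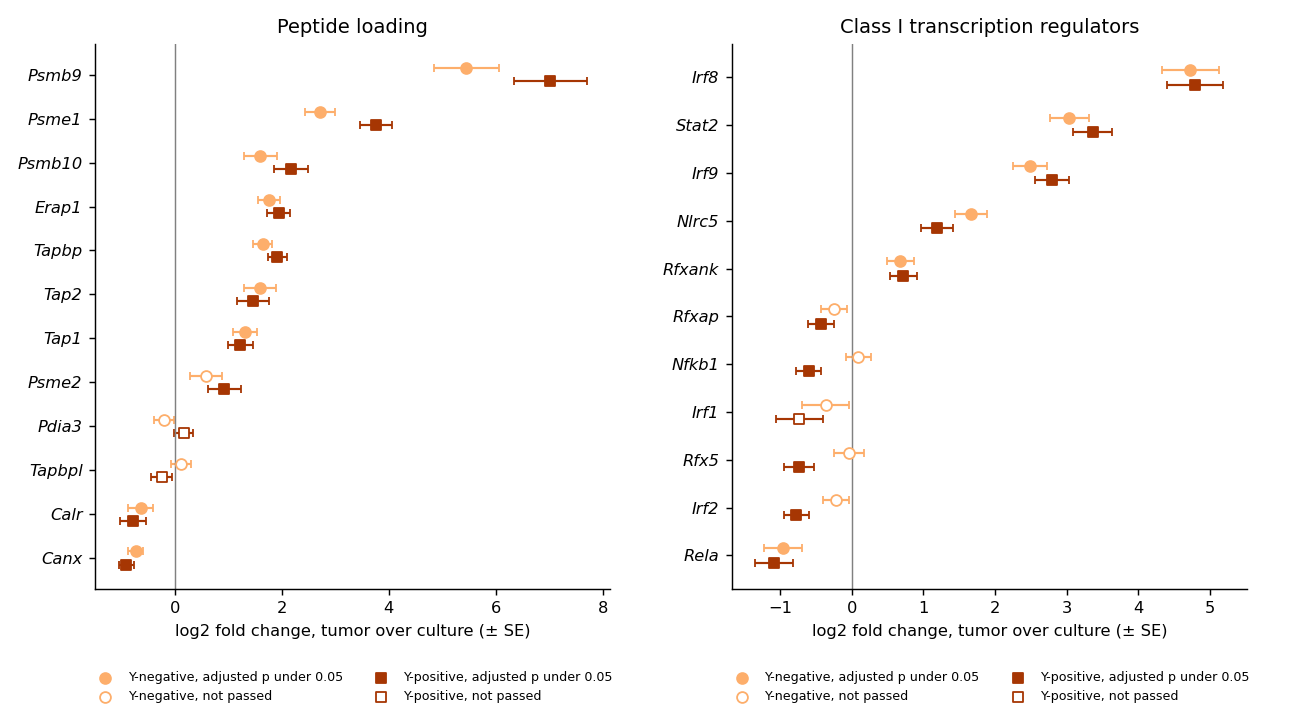
Log2 fold change of tumors over cultures with its standard error (horizontal axis) for the tested peptide loading genes (left) and class I transcription regulators (right), in Y-negative (circles) and Y-positive (squares) libraries; filled symbols passed edgeR's adjusted p of 0.05. Psmb9 and Irf8 lie farthest to the right in the Y-positive comparison, at 7.02 and 4.80, and Canx, Calr and Rela lie to the left of 0 in both.

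Of 8 genes of interferon receptors and their signal, 7 were tested between tumors and cultures. In the Y-negative libraries Jak1 (0.69 ± 0.17) and Ifnar1 (0.33 ± 0.14) rose and 0 fell, and in the Y-positive ones Jak1 rose (0.56 ± 0.17) and Jak2 fell (-0.58 ± 0.16). These are 2 of 7 in each comparison, below the 56% and 61.8% of all genes that changed. Ifng itself, the gene of interferon gamma, was listed in the tumor tables at 0.33 to 2.10 CPM. Between genotypes 0 of 7 passed in cultures and 0 of 8 in tumors, where 0.0321% and 2.45% of all genes did.

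The list of other class I and class I-like heavy chains held 16 genes, of which 9 were tested between tumors and cultures. In the Y-negative libraries 3 rose and 1 fell, and in the Y-positive ones 3 rose and 3 fell, which is 4 and 6 of 9, where 56% and 61.8% of all genes changed. The neonatal Fc receptor gene Fcgrt rose by 1.63 ± 0.22 and 2.61 ± 0.23, and the iron regulator gene Hfe by 1.57 ± 0.29 and 2.87 ± 0.30. Procr, the protein C receptor gene, fell by 2.76 ± 0.24 and 1.62 ± 0.23, and it was also the 1 of 11 tested that passed between the tumors (-0.93 ± 0.16, edgeR adjusted p = 0.0142) and the 1 of 9 that passed in the interaction (-1.14 ± 0.32, edgeR adjusted p = 0.0433). In cultures 0 of 9 passed. The shares of all genes that passed were 2.45% between the tumors, 4.56% in the interaction and 0.0321% between the cultures.

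A list of 10 receptor genes of T, NK and myeloid cells was drawn up for class I receptors and their relatives, 2 of which were listed in cultures. Whether the product of each gene, Lilrb4a among them, recognises class I was not examined. In the tumors they summed to 77.4 to 154 CPM in the Y-negative and 76.7 to 182 CPM in the Y-positive libraries. Between the genotypes 0 of 9 tested passed there, where 2.45% of all genes did, with 8 of the 9 negative and a median of -0.36. The inhibitory myeloid receptor gene Lilrb4a rose from cultures to tumors, by 6.20 ± 0.58 in Y-negative and 4.25 ± 0.52 in Y-positive libraries. Klra2, the other receptor gene tested in these comparisons, had -0.79 ± 0.39 and -0.03 ± 0.39 and did not pass.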

How the data were processed

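RNA was measured by sequencing in 20 libraries in 4 groups of 5, grouped by the titles in the labels. Per the labels' protocols, RNA came from a Qiagen RNeasy column kit and went into SMARTer mRNA libraries. Build mm10 and the tools STAR 2.7.0d, RSEM 1.3.1, cutadapt 2.3, MultiQC 1.8 and FastQC 0.11.5 are listed in the submitters' processing notes. What each tool did, which annotation was used, whether strand was counted and how reads matching several genes were treated is not given in the sources used here. The deposited tables hold whole-number read counts for each gene, and tests used these. The authors' FPKM stand beside them, per the file headers, and serve here to compare levels between genes. The FPKM rest on a length that is shorter than the listed gene length for many genes (1122 against 2608 bases for H2-K1). The cultures have 14701 genes listed and the tumors 28025, of which 14650 are in both. Names were taken by gene ID in the table of MN12, and 25 altered names were replaced through the ID. Each table also holds a further normalized column (20 in all), which was not used, and 1 of them, in the table of MN14, carries the name of MN13.

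Counts were fitted with edgeR 4.0.16 in R 4.3.3, with TMM factors, filterByExpr at a count of at least 10 and a total of at least 15, its quasi-likelihood test, and p-values adjusted by Benjamini-Hochberg over all genes tested, called at an adjusted p under 0.05. Cultures and tumors were fitted apart, each 5 against 5, and contrasts that span both used 4 group means fitted to the 20 libraries at once. Fits to all 20 libraries used only the genes listed in both cultures and tumors, with library totals summed over those genes. CPM in the text are scaled to the library's listed reads, with no TMM factor. Alternatives were other scalings, no filter, DESeq2 1.42.0, limma-voom (limma 3.58.1), each library left out, the Y-negative tumor sets left out, other sets of samples in the fit, and a covariate, the slope of log2 CPM on log2 gene length in each library. The scripts were tested on simulated data. Likeness used log2 CPM (prior count 2) of genes of at least 10 CPM on average. Promoter windows are RefSeq's, and Python 3.11.15 with pandas 2.3.3 made the summaries.

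The genes, the 6 lists described (the class I genes and 5 of their pathway), the 14 marker lists and the tests were chosen with earlier results of these data known. Named are all 9 genes, up to 3 members of every other list with the smallest adjusted p in each comparison described, members another sentence turns on, and the 5 genes most like the mean of H2-K1, H2-D1 and B2m, predicted genes left out. Nlrc5, Rela, H2-T10, Upk2 and Epcam were named beyond the 3 of their list, after their values had been seen. For the list of transcription regulators, 1 gene is not reported here, and the list's counts and medians leave it out.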

Additional observations from a re-analysis of the deposited data

Results flagged for a closer look

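In 36 sets of 5 libraries (9 genes in 4 groups), 2 values lay far from the other 4 of their group by Dixon's ratio, for which the critical value is 0.71. H2-Q6 stood at 54.5 CPM in BN2, with a ratio of 0.805, while the other Y-negative cultures held 3.02 to 13.1 CPM. H2-Q7 stood at 38.8 CPM in MB17, with a ratio of 0.768, while the other Y-positive cultures held 1.31 to 10.0 CPM. Chance flags about 1 in 20 such sets, so 2 in 36 is about the number it would give.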

How the results depend on the processing

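Of 900 refits of the 9 genes in the 5 comparisons, 816 kept their sign and their side of the threshold, 55 turned sign, 16 newly passed and 13 no longer passed; no call between tumors and cultures turned sign. The number of genes called between the tumors, 1, became 0 with limma-voom, with the length slope as a covariate, without MN11, MN13 and MN14 and with all 20 libraries in one model, 3 without MN12 and MN15, and 0 to 1 with single libraries left out. In the interaction, 0 became 1 with DESeq2 and without MN12 and MN15, and was 0 to 1 with single libraries left out (log2 values from here on). Between the tumors, H2-Q7 turned to 0.0021 with RLE factors, 0.0022 with DESeq2, 0.54 with the length slope and 0.54 without MN11, MN13 and MN14. H2-Q4 turned to -0.0101 without a filter, -0.0420 without MN12 and MN15 and -0.0319 with all 20 libraries in one model. With the length slope, and without MN11, MN13 and MN14, H2-T22 turned to 0.25 and 0.38 and H2-M3 to 0.0664 and 0.10. H2-Q6 between the cultures turned to -0.38 with limma-voom. Against cultures, H2-M3 turned to 0.0409 with library totals (Y-positive) and 0.12 without MN11, MN13 and MN14 (Y-negative), and H2-D1 to -0.0523 with the length slope (Y-positive) and -0.0149 without MN12 and MN15 (Y-negative). In the interaction, with the length slope and without MN11, MN13 and MN14, B2m turned to 0.0143 and 0.0013, H2-T22 to 0.0226 and 0.10 and H2-M3 to 0.33 and 0.27, and without MN12 and MN15 H2-K1 to -0.0856 and H2-D1 to -0.0727. With single libraries left out, the sign turned within -0.36 to 0.0069 for B2m, -0.99 to 0.49 for H2-Q6 and -0.0275 to 0.39 for H2-T22 between cultures, within -0.0684 to 0.0579 for H2-Q4 and -0.23 to 0.18 for H2-Q7 between tumors, and within -0.0070 to 0.16 for H2-D1 in Y-positive tumors against cultures. In the interaction these ranges were -0.27 to 0.11 for B2m, -0.0663 to 0.18 for H2-D1, -0.10 to 0.32 for H2-K1, -0.27 to 0.0816 for H2-M3 and -1.47 to 0.0396 for H2-Q6. The cause was not tested. No paired analysis was possible because replicate numbers are shared by fewer than 2 libraries of any groups compared. The lowest count of any of the 9 genes was 19 reads, of H2-Q7 in MB19. Over all genes, the 4 called between cultures became 472 with DESeq2, 13 with limma-voom, 50 with the length slope, 457 with all 20 libraries in one model and 2 to 66 with single libraries left out. The 362 called between tumors became 1331 with DESeq2, 234 with library totals, 3630 without MN12 and MN15, 21 without MN11, MN13 and MN14 and 80 to 796 with single libraries left out. The 627 of the interaction became 1276 with DESeq2, 1962 without MN12 and MN15, 6 without MN11, MN13 and MN14 and 171 to 1043 with single libraries left out.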
